A study of Mus musculus with 16 samples.

Results

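The 49 genes described here are the nuclear genes that the array names as subunits of complexes II to V of the mitochondrial respiratory chain and ATP synthase. They were taken by gene name from the array annotation, namely Sdha to Sdhd, the Uqcr genes, Cyc1, Cox4 to Cox8 and all names that start with Atp5. The array carried 34650 gene names in all, and the 49 were covered by 78 probes, of which the brightest per gene was kept. Complex II had 4 genes, complex III 9, complex IV 18 and complex V 18. Of these, 47 passed the filter on dim probes, which kept a probe if at least 1 group had it well above background on all of its arrays. The testis isoforms Cox7b2 and Cox8c were not well above background on any of the 16 arrays and were not tested. The names also took in Atp5c1-ps (a pseudogene of Atp5c1), Atp5sl and Atp5s, which are not core subunits of the enzyme.

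RNA came from the gastrocnemius, a calf muscle, of male C57BL6 littermates of 8 to 16 weeks that were wild type (WT) or lacked 1 copy of Eif6 in every tissue (Eif6+/-, here Het). Eif6 encodes eukaryotic initiation factor 6, which binds the large ribosomal subunit and keeps it from joining the small one. Each genotype had 3 arrays of whole-muscle RNA, 3 of pooled polysome fractions, which hold mRNAs that carry several ribosomes, and 2 of monosome RNA, which holds mRNAs with a single ribosome. The design text says that every mouse gave all 3 kinds of RNA, and arrays that share a genotype and a number were taken as 1 mouse, which no label states. The monosome arrays of WT carry the numbers 1 and 2, and those of Het the numbers 1 and 3. The comparisons asked whether a lower dose of Eif6 altered the level of these mRNAs in muscle or the amount of them held on ribosomes.

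Complex II, succinate dehydrogenase, hands electrons from succinate to ubiquinone and is encoded wholly in the nucleus. Complex III passes them on to cytochrome c and complex IV to oxygen, and complex V uses the resulting proton gradient to make ATP. Complexes III, IV and V join nuclear subunits to a few made from mitochondrial DNA, and around a conserved core they carry many small supernumerary subunits. Several of those come in tissue isoforms, of which Cox6a2, Cox7a1 and Cox8b are the forms of heart and skeletal muscle.

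Values are log2 normalised intensities of 1 probe per gene, and differences are log2 differences, Het minus WT unless stated. The Eif6 probe was lower in Het on every whole-muscle array (8.51 to 8.70 against 9.26 to 9.95) and every polysome array (9.17 to 9.41 against 10.24 to 11). All 8 skeletal muscle markers were well above background in the whole-muscle and polysome groups. The fractions of WT mouse 2 stood apart from the others. Over 1203 pairs of probes to 1 transcript, at least 500 bases apart on the genome, the probe nearer the 5′ end had a median excess of 0.38 in the polysomes and 0.54 in the monosomes of this mouse, against -1.2 to -0.79 on the other 14 arrays. Results that rest on this mouse are therefore given with and without it.

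In whole muscle no gene of the 4 complexes passed limma's test of the genotype difference. The differences ran from -0.24 for Sdhc to 0.42 for Cox7a2. None of the 47 genes had an unadjusted limma p under 0.05, where 3.18% of all 19855 probes tested were higher and 5.28% lower. At the study's threshold, a log2 difference above 1 in size with an unadjusted p under 0.05, 2% of all probes were higher and 3.64% lower, and none of the 47 was either. None passed the adjusted p, which 0.0101% of all probes did. The median difference of the 47 was 0.14, beside -0.03 over all probes, and 38 of the 47 were higher in Het. In a bulk sample fewer cells of a type and less RNA per cell cannot be told apart. Array brightness, the 75th percentile of the processed signal, was 42.3 to 150 on the WT and 13.5 to 33.0 on the Het whole-muscle arrays. With brightness as a term the median of the 47 was 0.105, beside 0.075 over all probes. Slide 1 held WT whole muscle 3, Het whole muscle 2 and 3, WT polysome 1 and 2 and Het polysome 1. Slide 2 held WT whole muscle 1 and 2, Het whole muscle 1, WT polysome 3 and Het polysome 2 and 3. Each slide alone thus sets a lone array of 1 genotype against the other, and genotype and slide are not balanced. Within slide 1 the median was 0.01 and within slide 2 it was 0.24.

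On polysomes all 4 genes of complex II (median 0.40) and all 4 of the complex III core (median 0.55) were above WT. The 5 supernumerary genes of complex III had a median of -0.30, with 1 above WT, the 10 common genes of complex IV a median of -0.27, with 2 above WT, and the 3 heart and muscle isoforms of complex IV a median of -0.52, with none. Complex V was mixed. Its 5 F1 genes had a median of 0.57 and ran from -0.74 (Atp5e) over -0.003 (Atp5d) to 0.66 (Atp5a1), and its 4 peripheral stalk genes had a median of 0.39. The 3 c ring genes had a median of 0.18 and the 3 membrane supernumerary genes one of -0.16. Over the 47 genes the median was -0.002, beside 0.05 over all probes. These groups of subunits were set after values had been seen, and the difference between them was not tested. No gene passed the adjusted p, which 0% of all probes did, and the lowest limma adjusted p of the 47 was 0.204 for Atp5c1-ps. The values that follow are therefore differences in means. Within slide 1 the median was 0.534 for complex II, 0.628 for complex III core, -0.298 for complex III supernumerary, -0.157 for complex IV common and -0.496 for complex IV heart and muscle isoforms, and within slide 2 these were 0.355, 0.336, -0.206, -0.197 and -0.218. Without WT mouse 2 they were 0.417, 0.455, -0.247, -0.226 and -0.285, and the medians were 0.342 for complex V F1, 0.28 for complex V peripheral stalk, 0.054 for complex V c ring and -0.202 for complex V membrane supernumerary. For these 4 groups of complex V slide 1 alone gave 0.746, 0.669, 0.154 and -0.044, whereas slide 2 alone gave 0.259, 0.112, 0.058 and -0.168.

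At an unadjusted p under 0.05, 12 of the 47 genes were higher in Het polysomes, where 10.3% of all probes were. The 12 were Sdha, Sdhd, Uqcrc2, Cyc1, Uqcrfs1, Atp5a1, Atp5b, Atp5c1, Atp5f1, Atp5j, Atp5s and Atp5c1-ps. Another 4 were lower, namely Cox6a1, Cox8a, Cox7a1 and Atp5e, where 4.83% of all probes were. At the study's threshold 3 were higher (Uqcrfs1, Atp5s and Atp5c1-ps, beside 4.18% of all probes) and none was lower (1.55%). Of these Atp5s was not well above background on any WT polysome array. All 16 kept their sign within slide 1, within slide 2, with 75th percentile scaling, with normexp background correction, in the authors' table, with array brightness as a term and without WT mouse 2. Without that mouse 6 of the 12 and 2 of the 4 remained under 0.05. The slides alone give sizes only, since each had a lone polysome array of 1 genotype. Several were smaller within slide 2 than within slide 1. Uqcrfs1 was 1.45 within slide 1 and 0.39 within slide 2, Atp5f1 1.07 and 0.26, and Atp5j 0.97 and 0.06. In the same order Uqcrc2 was 0.71 and 0.28, Atp5a1 0.75 and 0.37, Atp5b 0.75 and 0.26, Atp5c1 0.78 and 0.28, Sdhd 0.53 and 0.27 and Cox7a1 -0.68 and -0.30. Over all 47 genes 3 were higher without Het mouse 1, 7 without WT mouse 2, and 9 were lower without WT mouse 3.

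**Figure D1:**
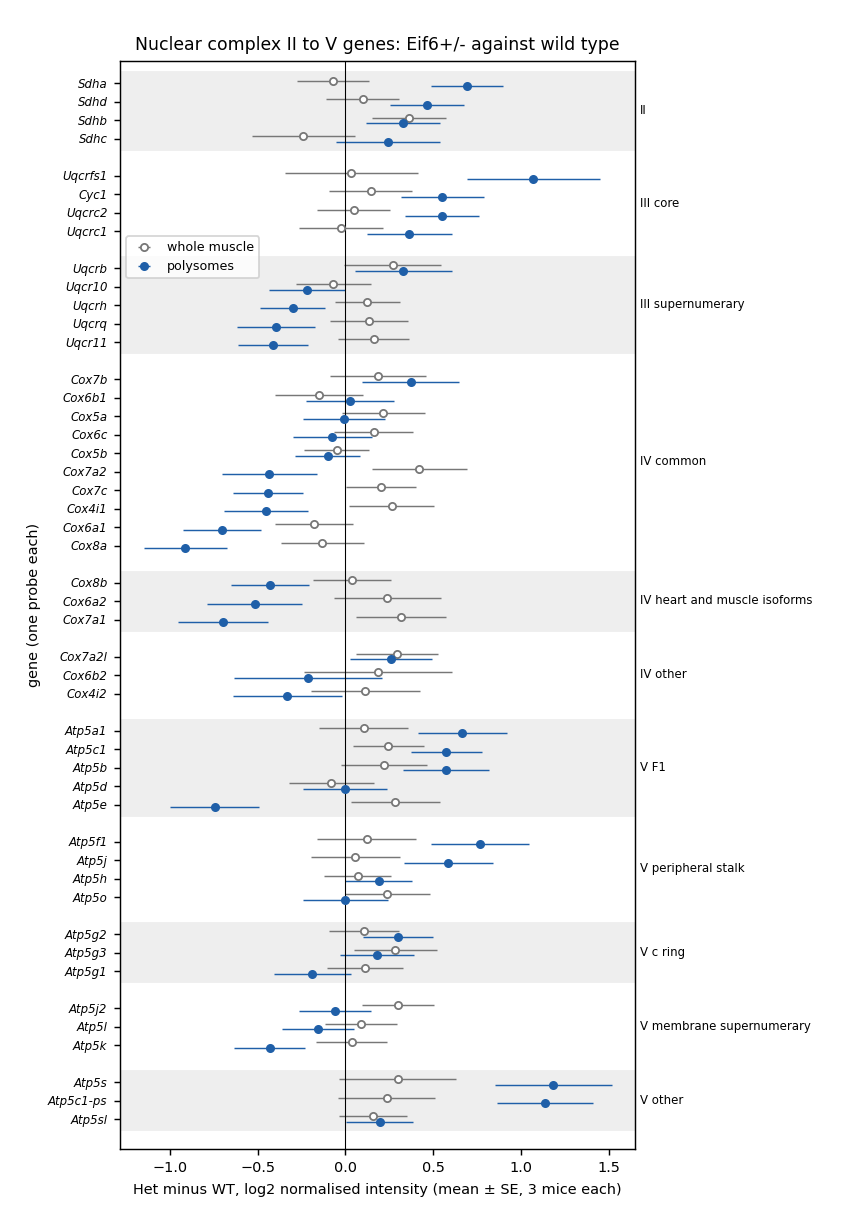
Het minus WT difference (log2, x axis) of each of the 47 genes in whole muscle (open circles) and on polysomes (filled circles), grouped by role in the complex; bars are standard errors from limma, 3 mice per genotype. Whole-muscle points stay between -0.24 and 0.42, while polysome points run from -0.91 (Cox8a) to 1.14 (Atp5c1-ps) among genes above background in both groups. Atp5s, not above background on WT polysomes, is drawn at its fitted value. The polysome points of complex II and the complex III core lie to the right of 0 and the heart and muscle isoforms of complex IV to the left.

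Sequences before the start are shown for 5 of these genes, Sdha and Sdhd with higher and Atp5e, Cox6a1 and Cox7a1 with lower polysome signal in Het, because nuclear respiratory genes are known to share promoter motifs. RefSeq promoters (build GRCm38.p6) were found for 37 of the 49 genes. On either strand the NRF-1 motif GCATGCGC lay between 250 bases before and 50 after the gene start in 7 of the 37 (18.9%), against 3.05% of 27025 genes. The GABP motif CCGGAAG lay in 12 (32.4%, against 9.93%), the ERR motif AAGGTCA in 5 (13.5%, against 5.38%) and the YY1 motif ATGGCGG in 3 (8.1%, against 4.69%). In the 250 bases below, written 5′ to 3′ on the gene's strand, capitals mark these motifs in either orientation.
Sdha (chr13:74350241-74350490, minus strand): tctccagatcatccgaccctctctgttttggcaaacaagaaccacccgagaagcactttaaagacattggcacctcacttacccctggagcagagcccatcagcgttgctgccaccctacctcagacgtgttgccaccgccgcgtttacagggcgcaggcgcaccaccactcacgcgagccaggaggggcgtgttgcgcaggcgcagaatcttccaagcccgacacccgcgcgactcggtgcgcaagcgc
Sdhd (chr9:50603850-50604099, minus strand): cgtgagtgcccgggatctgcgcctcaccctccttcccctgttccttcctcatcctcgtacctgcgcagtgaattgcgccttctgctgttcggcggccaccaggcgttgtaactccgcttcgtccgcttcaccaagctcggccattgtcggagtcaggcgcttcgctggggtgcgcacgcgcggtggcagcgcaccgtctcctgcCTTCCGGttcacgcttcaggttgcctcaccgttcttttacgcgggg
Atp5e (chr2:174464102-174464351, minus strand): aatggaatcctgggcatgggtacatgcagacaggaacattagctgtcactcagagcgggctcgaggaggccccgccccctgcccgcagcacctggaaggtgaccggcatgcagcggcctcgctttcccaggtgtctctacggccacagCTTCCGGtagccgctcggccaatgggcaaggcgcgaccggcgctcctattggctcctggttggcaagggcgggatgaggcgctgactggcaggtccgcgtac
Cox6a1 (chr5:115348959-115349208, minus strand): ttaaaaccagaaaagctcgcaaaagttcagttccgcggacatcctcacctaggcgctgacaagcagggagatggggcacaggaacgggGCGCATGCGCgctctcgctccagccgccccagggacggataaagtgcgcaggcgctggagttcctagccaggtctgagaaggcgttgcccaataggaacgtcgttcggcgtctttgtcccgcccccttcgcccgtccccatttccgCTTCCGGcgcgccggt
Cox7a1 (chr7:30183921-30184170, plus strand): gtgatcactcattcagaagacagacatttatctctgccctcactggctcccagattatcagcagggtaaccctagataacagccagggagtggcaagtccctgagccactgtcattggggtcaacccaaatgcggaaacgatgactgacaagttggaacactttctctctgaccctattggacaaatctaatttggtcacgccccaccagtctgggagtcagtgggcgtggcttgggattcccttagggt
Sdhd and Atp5e, whose polysome differences had opposite signs, both held a GABP motif, 46 and 102 bases before the start. Cox6a1 held one 16 bases before its start and overlapping NRF-1 matches at 162 and 160 bases before it. None of the 4 motifs was in these letters for Sdha and Cox7a1.

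Sdha encodes the flavoprotein that binds succinate. Its values were 11.07, 11.24 and 11.17 in WT and 11.21, 11.05 and 11.02 in Het whole muscle. They were 11.12, 10.61 and 11.21 in WT and 11.58, 11.73 and 11.72 in Het polysomes. Whole-muscle values overlapped, whereas each Het polysome array lay above each WT polysome array. The polysome difference was 0.69 (SE 0.21, 1.62-fold, limma adjusted p = 0.243), and 0.51 without WT mouse 2.

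Sdhb encodes the iron-sulfur subunit. It had 13.46, 14.03 and 13.86 in WT and 14.35, 14.07 and 14.01 in Het whole muscle, and 14.21, 14.27 and 14.36 in WT and 14.78, 14.54 and 14.50 in Het polysomes. Het was above WT on every polysome array, by 0.33 on average (limma adjusted p = 0.447), and the overlapping whole-muscle values differed by 0.36. A second Sdhb probe gave 0.93 on polysomes and 0.13 in whole muscle. Sdhc and Sdhd encode the membrane anchors. Sdhc had 11.39, 11.26 and 11.12 in WT and 10.98, 10.97 and 11.09 in Het whole muscle, and 10.99, 12.19 and 11.37 in WT and 11.65, 11.51 and 12.12 in Het polysomes. All Het whole-muscle arrays were below WT, and on polysomes WT replicate 2 was above every Het array (0.24, and 0.58 without WT mouse 2). Sdhd had 11.60, 11.96 and 11.90 in WT and 11.95, 12.11 and 11.71 in Het whole muscle, and 12.43, 12.08 and 12.57 in WT and 12.78, 12.87 and 12.82 in Het polysomes. Its polysome groups did not overlap, with a difference of 0.46 (SE 0.21, adjusted p = 0.328).

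In the complex III core, Uqcrfs1 encodes the Rieske iron-sulfur protein, which takes an electron from ubiquinol. It had 11.62, 11.91 and 12.09 in WT and 12.05, 11.81 and 11.86 in Het whole muscle, and 12.19, 10.69 and 12.42 in WT and 12.90, 12.74 and 12.87 in Het polysomes. WT polysome 2 lay far below the other 5 polysome arrays. The difference of 1.07 (SE 0.38, 2.10-fold, limma adjusted p = 0.272) was 0.53 without that mouse. Uqcrc2, a core protein of the matrix arm, had 12.33, 12.58 and 12.54 in WT and 12.62, 12.49 and 12.49 in Het whole muscle, and 12.99, 12.46 and 13.10 in WT and 13.43, 13.43 and 13.34 in Het polysomes. No Het polysome array was as low as any WT one (0.55, SE 0.21, adjusted p = 0.283, and 0.36 without WT mouse 2). Cyc1, which encodes cytochrome c1, differed by 0.55 (adjusted p = 0.313), and Uqcrc1, the partner of Uqcrc2, by 0.36 (adjusted p = 0.458), both without overlap.

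The supernumerary genes of complex III had negative polysome differences, apart from Uqcrb (0.33, and 0.02 without WT mouse 2), which was 0.61 within slide 1 and -0.07 within slide 2. Uqcrh, the hinge protein, had 13.25, 13.21 and 13.25 in WT and 13.43, 13.35 and 13.30 in Het whole muscle, and 14.76, 14.35 and 14.39 in WT and 14.26, 14.23 and 14.11 in Het polysomes. Each Het array was above each WT array in whole muscle and below it on polysomes, with a polysome difference of -0.30 (limma adjusted p = 0.432). The small membrane subunit gene Uqcr11 had 13.61, 13.69 and 13.55 in WT and 13.89, 13.80 and 13.63 in Het whole muscle, and 15.14, 15.11 and 14.74 in WT and 14.82, 14.48 and 14.45 in Het polysomes. Of the Het polysome arrays replicate 1 lay within the WT range and the others below it (-0.41, adjusted p = 0.353).

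**Figure D2:**
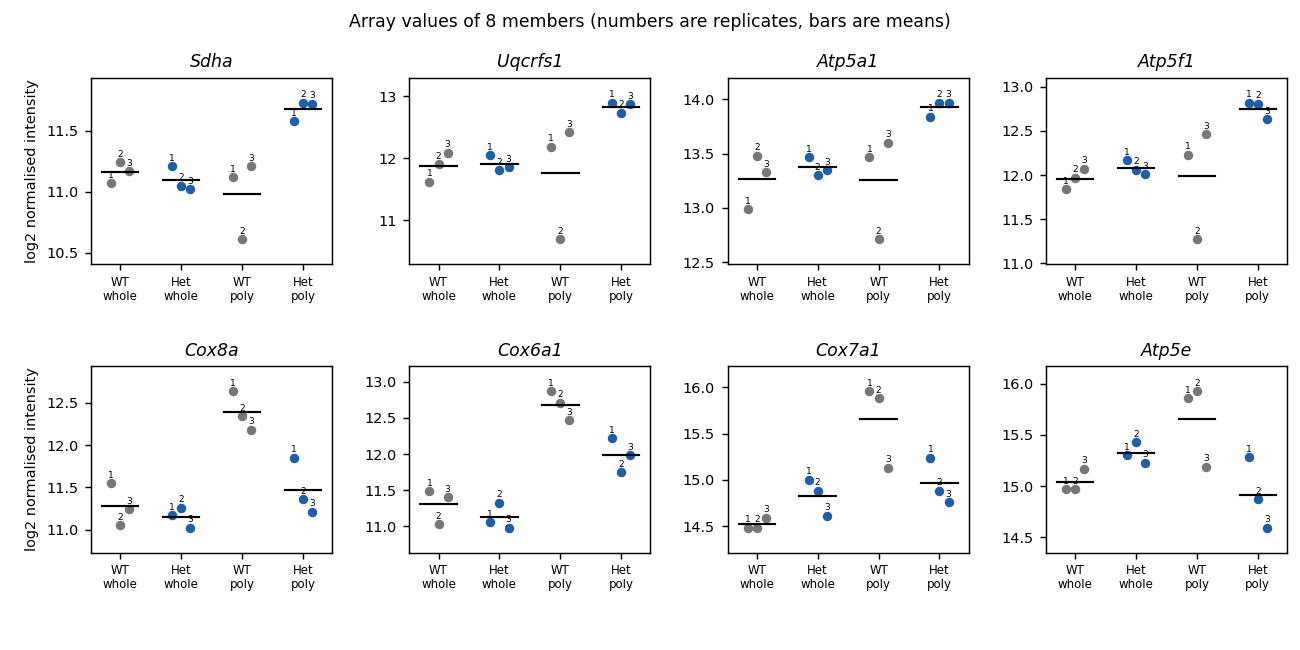
Log2 normalised intensity of 8 genes on each of the 12 whole-muscle and polysome arrays; numbers beside points are replicates, bars are group means, and each panel has its own scale. For Sdha, Uqcrfs1, Atp5a1 and Atp5f1 every Het polysome array is above every WT one, and for Cox8a and Cox6a1 every Het polysome array is below every WT one, whereas for Cox7a1 and Atp5e WT replicate 3 lies within the Het range.

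In complex IV 13 of the 16 tested genes had a negative polysome difference (median -0.38). Cox8a, the liver-type form of subunit 8, had 11.55, 11.05 and 11.24 in WT and 11.17, 11.26 and 11.02 in Het whole muscle, and 12.64, 12.34 and 12.18 in WT and 11.85, 11.36 and 11.21 in Het polysomes. All 3 Het polysome arrays lay below all 3 WT ones, a difference of -0.91 (SE 0.24, limma adjusted p = 0.22). A second Cox8a probe gave -0.92. Cox8b, its muscle form, had 13.99, 14.19 and 14.10 in WT and 14.17, 14.08 and 14.14 in Het whole muscle, and 15.11, 15.30 and 14.62 in WT and 14.84, 14.51 and 14.40 in Het polysomes. Its polysome groups overlapped (-0.43, adjusted p = 0.368, and -0.29 without WT mouse 2).

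Cox6a1 and Cox6a2 are the liver-type and muscle-type forms of subunit 6a. Cox6a1 had 11.49, 11.03 and 11.40 in WT and 11.06, 11.33 and 10.98 in Het whole muscle, and 12.87, 12.71 and 12.47 in WT and 12.22, 11.75 and 11.98 in Het polysomes. The polysome groups did not overlap (-0.70, SE 0.22, limma adjusted p = 0.254). Cox6a2 had 15.11, 15.51 and 15.16 in WT and 15.56 and 15.43 in Het whole muscle, where Het replicate 2 had no usable spot and was left out, and 16.11, 16.78 and 15.83 in WT and 15.95, 15.54 and 15.68 in Het polysomes. Het polysome 1 lay within the WT range, and the difference was -0.52 (adjusted p = 0.379), or -0.25 without WT mouse 2.

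In the subunit 7a family Cox7a1 is the muscle form. It had 14.48, 14.48 and 14.59 in WT and 15.00, 14.88 and 14.61 in Het whole muscle, so that every Het array was the higher. On polysomes there were 15.96, 15.88 and 15.13 in WT and 15.24, 14.88 and 14.76 in Het polysomes, where WT replicate 3 fell within the Het range (-0.70, SE 0.26, limma adjusted p = 0.278). The liver form Cox7a2 had 11.43, 11.53 and 11.98 in WT and 12.03, 12.15 and 12.02 in Het whole muscle, and 12.46, 13.11 and 12.30 in WT and 12.51, 12.21 and 11.85 in Het polysomes. It too was above WT on every Het whole-muscle array, and its polysome groups overlapped (-0.43, adjusted p = 0.437, and -0.19 without WT mouse 2). Cox7a2l, a related gene whose product helps to join complexes III and IV, had 11.78, 11.92 and 11.89 in WT and 12.17, 12.15 and 12.16 in Het whole muscle, and 11.44, 10.86 and 11.46 in WT and 11.60, 11.79 and 11.14 in Het polysomes. It differed by 0.26 on polysomes, within the spread between mice (adjusted p = 0.569), and by 0.06 without WT mouse 2 and 0.008 within slide 2. Its other probes gave 0.589 and 0.265 on polysomes, and -0.045 and 0.20 in whole muscle.

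Among the remaining families Cox4i1, the ubiquitous subunit 4, had 14.74, 14.78 and 15.10 in WT and 15.17, 15.12 and 15.11 in Het whole muscle, and 15.76, 16.02 and 15.16 in WT and 15.37, 15.08 and 15.13 in Het polysomes. Its polysome difference was -0.45 (limma adjusted p = 0.381), or -0.26 without WT mouse 2 and -0.05 within slide 2, with WT replicate 3 within the Het range. Cox4i2, an isoform known from lung and hypoxia, was dim, with 6.20, 6.16 and 5.53 in WT and 5.91, 5.74 and 6.59 in Het whole muscle, and 6.56, 7.32 and 6.84 in WT and 6.66, 6.26 and 6.80 in Het polysomes. Cox6b1, a subunit on the intermembrane-space side, had 10.84, 10.74 and 10.67 in WT and 10.62, 10.62 and 10.56 in Het whole muscle, and 10.57, 11.62 and 10.98 in WT and 11.03, 11.03 and 11.19 in Het polysomes. It was lower on each Het whole-muscle array and overlapped on polysomes (0.03, and 0.31 without WT mouse 2). The testis form Cox6b2 had 5.75, 6.05 and 5.71 in WT and 6, 5.57 and 6.49 in Het whole muscle, and 5.89, 7.08 and 6.22 in WT and 5.88, 5.58 and 7.09 in Het polysomes. Cox4i2 and Cox6b2 were each well above background on 11 of the 12 arrays, and their groups overlapped in both kinds of RNA. The polysome difference of Cox6b2, -0.21, turned to 0.13 without WT mouse 2 and to 0.11 within slide 2. Cox7b, a small membrane subunit, had 13.33, 13.46 and 13.54 in WT and 13.66, 13.63 and 13.59 in Het whole muscle, and 14.09, 13.12 and 14.16 in WT and 14.43, 14.03 and 14.03 in Het polysomes. WT replicate 2 was its lowest polysome array (0.37, adjusted p = 0.495), and without that mouse the difference was 0.04. Within slide 1 it was 0.82 and within slide 2 it was -0.13. Cox7c, another small membrane subunit, was lower on every Het polysome array (-0.44, adjusted p = 0.33), although 1 of its other probes gave 0.66.

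In complex V the F1 genes for alpha, beta and gamma were above WT on polysomes and that for epsilon was below it. Atp5a1 (alpha) differed by 0.66 (SE 0.25, limma adjusted p = 0.283), Atp5b (beta, the catalytic subunit) by 0.57 (adjusted p = 0.313) and Atp5c1 (gamma) by 0.57 (adjusted p = 0.272), each without overlap. Atp5f1, subunit b of the peripheral stalk, differed by 0.77 (SE 0.28, adjusted p = 0.277) without overlap. Atp5j, which encodes coupling factor F6, differed by 0.59 (adjusted p = 0.315). Without WT mouse 2 these differences were 0.39 for Atp5a1, 0.34 for Atp5b, 0.59 for Atp5c1, 0.41 for Atp5f1 and 0.31 for Atp5j. Atp5e encodes epsilon, a small subunit of the central stalk. It had 14.97, 14.97 and 15.17 in WT and 15.30, 15.43 and 15.23 in Het whole muscle, and 15.86, 15.93 and 15.19 in WT and 15.28, 14.87 and 14.59 in Het polysomes. Every Het whole-muscle array was above WT, and on polysomes WT replicate 3 was within the Het range (-0.74, SE 0.25, adjusted p = 0.27).

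Atp5g1, Atp5g2 and Atp5g3 encode one and the same mature subunit c of the rotor ring. Atp5g1 had 14.98, 15.00 and 15.33 in WT and 15.28, 15.23 and 15.14 in Het whole muscle, and 15.10, 15.60 and 15.11 in WT and 15.32, 15.01 and 14.92 in Het polysomes. Atp5g2 had 13.61, 13.83 and 13.61 in WT and 13.92, 13.78 and 13.66 in Het whole muscle, and 13.88, 13.84 and 13.92 in WT and 14.20, 14.43 and 13.91 in Het polysomes. Atp5g3 had 13.46 and 13.63 in WT and 13.97, 13.95 and 13.58 in Het whole muscle, where WT replicate 3 had no usable spot and was left out, and 14.42, 13.98 and 14.30 in WT and 14.52, 14.37 and 14.34 in Het polysomes. All 3 overlapped on polysomes, with differences of -0.19, 0.30 and 0.18, or -0.02, 0.28 and 0.05 without WT mouse 2. A second Atp5g1 probe gave -0.53 on polysomes and 0.33 in whole muscle. Atp5k, subunit e of the membrane part, had 13.08, 13.10 and 13.07 in WT and 13.41, 12.98 and 12.96 in Het whole muscle, and 14.56, 14.57 and 14.24 in WT and 14.17, 14.02 and 13.89 in Het polysomes. Its Het polysome arrays were all below WT (-0.43, limma adjusted p = 0.339).

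The pseudogene probe Atp5c1-ps had 11.10, 11.36 and 11.26 in WT and 11.60, 11.50 and 11.32 in Het whole muscle, and 9.31, 10.49 and 9.95 in WT and 10.98, 10.98 and 11.19 in Het polysomes. Its Het polysome arrays were all above WT (1.14, SE 0.27, 2.20-fold, limma adjusted p = 0.204), and signal from Atp5c1, of which it is a near copy, cannot be told apart from its own. Atp5s, factor B, had 4.49, 4.15 and 4.88 in WT and 4.43, 4.98 and 5 in Het whole muscle, and 3.37, 2.81 and 3.54 in WT and 4.65, 4.82 and 3.78 in Het polysomes. It was not well above background on any WT polysome array and was so on 2 of the 3 Het ones. Het polysome 3, at 3.78, lay below the mean floor of 3.89 taken for the WT arrays, so no least fold is given. The fitted difference of 1.18 (limma adjusted p = 0.231) was 0.24 with normexp and 0.24 in the authors' table.

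Summed marker signals of fibroblasts and erythroid cells were lower in Het polysomes, without overlap. The summed signal (log2) of 3 fibroblast genes, all well above background, was 15.30 to 15.43 in WT and 14.67 to 14.94 in Het polysomes. For 4 erythroid genes, 3 of them well above background on every WT polysome array and all 4 on every Het one, it was 14.62 to 15.68 and 13.55 to 14. All of these genes were lower in Het polysomes, with medians of -0.49 and -0.98. In whole muscle the sums overlapped, at 14.01 to 14.52 in WT and 13.74 to 14.37 in Het for fibroblast genes and at 13.51 to 14.16 and 13.81 to 14.03 for erythroid genes. Of 5 macrophage genes 4 were well above background on the WT polysome arrays and Cd163 was not, and the 4 tested were lower in Het in both kinds of RNA (median -1.1 in whole muscle and -0.84 on polysomes). Their sum was 8.99 to 11.44 in WT and 8.81 to 9.50 in Het whole muscle, and 10.12 to 11.87 and 9.55 to 10.80 on polysomes. The sum of the smooth muscle genes was 9.48 to 10.47 in WT and 9.27 to 9.48 in Het whole muscle, where both tested were lower (median -0.88), and 11.06 to 11.96 and 11.01 to 11.69 on polysomes (median -0.02). The macrophage gene Lyz2 and the smooth muscle gene Myh11 stayed near background in all Het whole-muscle RNA. None of these marker genes passed the adjusted p in either kind of RNA. The summed skeletal muscle signal was 19.50 to 19.56 in WT and 19.77 to 19.80 in Het polysomes, without overlap, and each of the 8 markers lay above WT there (median 0.44). In whole muscle it was 19.66 to 19.95 and 19.65 to 19.78 (median -0.08). The polysome sum of 6 slow-fibre genes overlapped, at 14.37 to 15.89 and 14.75 to 15.47. Endothelial and adipocyte genes went both ways, with medians of -0.31 and -0.11 on polysomes and -0.17 and -0.02 in whole muscle. The part of these shifts in the differences of the 47 genes was not tested.

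Loading, the log2 ratio of polysome to whole-muscle signal within a mouse number, asks whether a gene's share on polysomes differed. Its median difference between genotypes was 0.42 in complex II, 0.46 in the complex III core, 0.33 in complex V F1 and 0.33 in the complex V peripheral stalk. It was -0.42 in complex III supernumerary genes, -0.38 in complex IV common genes and -0.66 in the heart and muscle isoforms. These values share the polysome arrays with the comparison above. With array brightness as a term the median was 0.366 for complex II, 0.119 for complex III core, 0.068 for complex V F1, 0.248 for complex V peripheral stalk, -0.201 for complex III supernumerary, 0.093 for complex IV common and -0.148 for complex IV heart and muscle isoforms. Without WT mouse 2 these were 0.347, 0.397, 0.174, 0.118, -0.364, -0.429 and -0.521. For a slide alone, loading compares arrays of different mice. Within slide 2 the medians of complex V F1 and the complex V peripheral stalk were -0.11 and -0.15, and the complex III core genes ran from 0.10 to 0.38. Within slide 1 the complex IV common genes ran from -0.54 to 0.75, and the complex III supernumerary median was -0.25. No gene passed the adjusted p (0% of all probes). At an unadjusted p under 0.05 loading was higher in Het for 2 genes (Sdha and Atp5c1-ps, beside 8.13% of all probes) and lower for 3 (Cox8a, Cox7a1 and Atp5e, beside 8.73%). At the study's threshold none was higher (6.73% of all probes) and 2 were lower (Cox7a1 and Atp5e, beside 7.2%). The median of the 47 genes was -0.05, beside 0.17 over all probes.

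Cox7a1 had loadings of 1.48, 1.41 and 0.54 in WT and 0.25, -0.00 and 0.15 in Het mice, which did not overlap (-1.01, SE 0.35, limma adjusted p = 0.223). For Atp5e the loadings were 0.89, 0.96 and 0.01 in WT and -0.03, -0.56 and -0.63 in Het mice. All WT mice were above 0 and all Het mice below it (-1.03, SE 0.38, adjusted p = 0.241). Cox8a, at 1.1, 1.28 and 0.94 in WT and 0.69, 0.10 and 0.19 in Het mice, was lower in every Het mouse (-0.78, adjusted p = 0.266). Sdha, at 0.05, -0.62 and 0.04 in WT and 0.37, 0.69 and 0.70 in Het mice, was higher in every Het mouse (0.76, adjusted p = 0.293). Array brightness was lower in Het whole muscle and, at 63.1 to 106 against 24.1 to 66.1, mostly higher in Het polysomes. With brightness as a term the loading differences were -0.15 for Cox7a1, -0.06 for Atp5e, -0.30 for Cox8a and 0.40 for Sdha, and no gene remained under 0.05. With this term the loading difference changed sign for 17 of the 47 genes, such as Cox4i1 (-0.72 to 0.25), Uqcrq (-0.53 to 0.34), Cox6a1 (-0.52 to 0.26) and Uqcrc1 (0.39 to -0.55). Without WT mouse 2 the loading differences of Cox7a1, Atp5e, Cox8a and Sdha were -0.88, -0.86, -0.69 and 0.54.

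**Figure D3:**
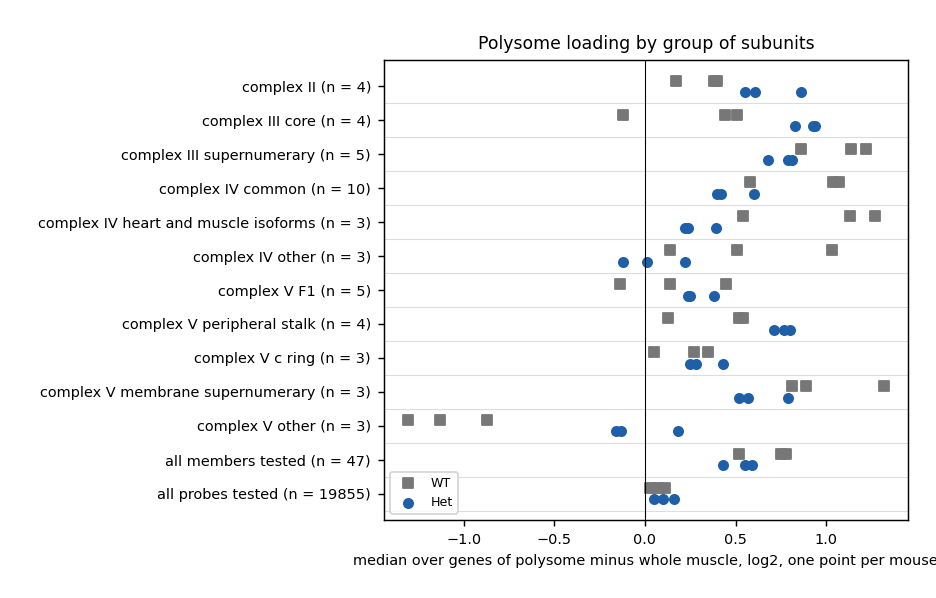
Median polysome minus whole-muscle log2 ratio of each group of subunits (x axis), 1 point per mouse, WT squares and Het circles. For the heart and muscle isoforms of complex IV the WT mice lie at 0.54 to 1.27 and the Het mice at 0.22 to 0.39, and for the complex III core the WT mice lie at -0.12 to 0.51 and the Het mice at 0.83 to 0.94.

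Over both genotypes 44 of the 47 genes had a higher polysome than whole-muscle signal, with a median ratio of 0.54, beside 0.10 over all probes. By limma's adjusted p 23 rose on polysomes, where 13.5% of all probes did, and 3 fell (Cox7a2l, Atp5s and Atp5c1-ps), where 11.8% did. The highest ratios were those of Uqcrc1 (1.27, adjusted p = 0.00507), Atp5k (1.14, adjusted p = 0.00268) and Cox6a1 (1.12, adjusted p = 0.0052), each above 0 in 6 of 6 mice. At the other end the ratio was -0.87 for Atp5c1-ps (adjusted p = 0.0129) and -0.63 for Cox7a2l (adjusted p = 0.0357), below 0 in 6 of 6 mice. Atp5s passed the filter only through WT whole muscle and was not above background on WT polysomes. Its fall restates that filter and is not read as a result. With each array scaled to its 75th percentile 8 of the 47 rose and the median was 0.24, and 9 rose without Het mouse 1. Within slide 1 the median was 0.56 and within slide 2 it was 0.44, from arrays of different mice.

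In WT the median ratio was 0.63, with 18 genes that rose (beside 10.4% of all probes) and 2 that fell (10.6%). Those that fell were Atp5c1-ps and Atp5s, to which the same limit applies. In Het it was 0.50, with 4 that rose (3.28%) and none that fell (4.05%). The median over the complex III core was 0.13 in WT and 0.90 in Het, and over the heart and muscle isoforms 0.98 in WT and 0.32 in Het. Without WT mouse 2 the WT medians were 0.53 and 0.84. The test of these differences is that of loading above.

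Monosome arrays, 2 per genotype, were normalised together with the other 12, which shifts the scale slightly. Most of the 47 genes had a higher monosome signal in Het, with a median difference of 0.70, beside 0.10 over all probes. At an unadjusted p under 0.05, 22 of the 47 were higher in Het (19.8% of all probes) and none was lower (13.2%). None of the 47 passed the adjusted p, and 0.502% of all probes did. Cox7b, a small membrane subunit of complex IV, had monosome values of 12.94 and 10.66 in WT and 14.11 and 13.72 in Het, Cox6c, another, had 12.79 and 10.94 in WT and 14.24 and 13.67 in Het, and Atp5j had 11.11 and 9.52 in WT and 12.44 and 12.13 in Het. WT mouse 2 was the lowest of the 4 arrays for each, and the differences of 2.11, 2.09 and 1.97 were 0.97, 1.16 and 1.18 without it. Without Het mouse 1, 6 were higher, and without WT mouse 2, 20 were. Of the marker genes of other cells and of slow fibres, all 4 erythroid, all 4 macrophage, all 3 fibroblast, both smooth muscle and all 6 slow-fibre genes tested were lower in Het monosomes, with medians of -1.16, -1.58, -0.52, -0.97 and -0.82. With WT mouse 2 left out these were -0.44, -1.41, -0.46, -0.70 and 0.08, and 2 of the 3 fibroblast and 3 of the 6 slow-fibre genes were lower. In the other lists 2 of 3 endothelial genes (median -1.21), 3 of 4 adipocyte genes (-0.31) and 3 of 8 skeletal muscle genes (0.21) were lower. Without WT mouse 2 these were 3 (-0.36), 4 (-0.75) and 1 (0.38). The summed macrophage signal, with Cd163 near background on each array, was 10.72 and 10.13 in WT and 9.02 and 9.24 in Het monosomes, and the summed slow-fibre signal was 13.27 and 15 in WT and 13.18 and 13.61 in Het. The sums were 14.18 and 15.62 against 13.82 and 14.07 for erythroid, 14.64 and 14.80 against 14.24 and 13.78 for fibroblast and 10.45 and 11 against 9.58 and 9.82 for smooth muscle genes. The part of these shifts in the monosome differences was not tested. The WT monosome arrays correlated at 0.782 with each other and the Het ones at 0.968.

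Within a mouse, the polysome minus monosome ratio had its highest group medians in the complex III core (1.61) and the complex V peripheral stalk (1.17). Over 4 mice the median ratio of the 47 genes was 0.59, beside 0.17 over all probes. None passed the adjusted p (0% of all probes). At an unadjusted p under 0.05, 22 were higher on polysomes (24.6% of all probes) and 2 were lower (16.5%). The highest were Uqcrc2 (1.70, SE 0.21, limma adjusted p = 0.0553), Uqcrfs1 (1.64) and Uqcrc1 (1.58), each above 0 in 4 of 4 mice. With WT mouse 2 left out they were 1.76, 1.31 and 1.97. The lowest were Atp5e (-0.86, adjusted p = 0.0718), Cox8b (-0.73) and Cox7a2l (-0.66), each below 0 in 3 of 4 mice. These became -0.998, -0.82 and -1.09 without WT mouse 2. With 75th percentile scaling the median of complex IV heart and muscle isoforms turned from -0.24 to 0.11. Without Het mouse 3, 6 of the 47 were higher, and without Het mouse 1, 9 were.

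For the monosome minus whole-muscle ratio, which shares the monosome arrays, the median was 0.01, beside -0.10 over all probes. At an unadjusted p under 0.05, 10 genes were higher in monosomes (11.1% of all probes) and 7 were lower (11.8%), and none passed the adjusted p (0% of all probes). Cox8b (1.47), Cox8a (1.24) and Atp5e (1.14) were highest, each above 0 in 4 of 4 mice. Low ratios were those of Atp5c1-ps (-1.74), Uqcrfs1 (-1.34) and Atp5a1 (-1.21). That of Uqcrfs1 was -0.46 and -3.59 in WT and -0.66 and -0.65 in Het, and its mean rested on WT mouse 2. Without that mouse the 3 were -1.77, -0.56 and -0.88. Atp5s was not well above background on any monosome array, and no ratio is given for it. With 75th percentile scaling 2 were higher, 11 were lower and the median was -0.33, and without Het mouse 1 none was higher and 1 was lower.

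**Figure D4:**
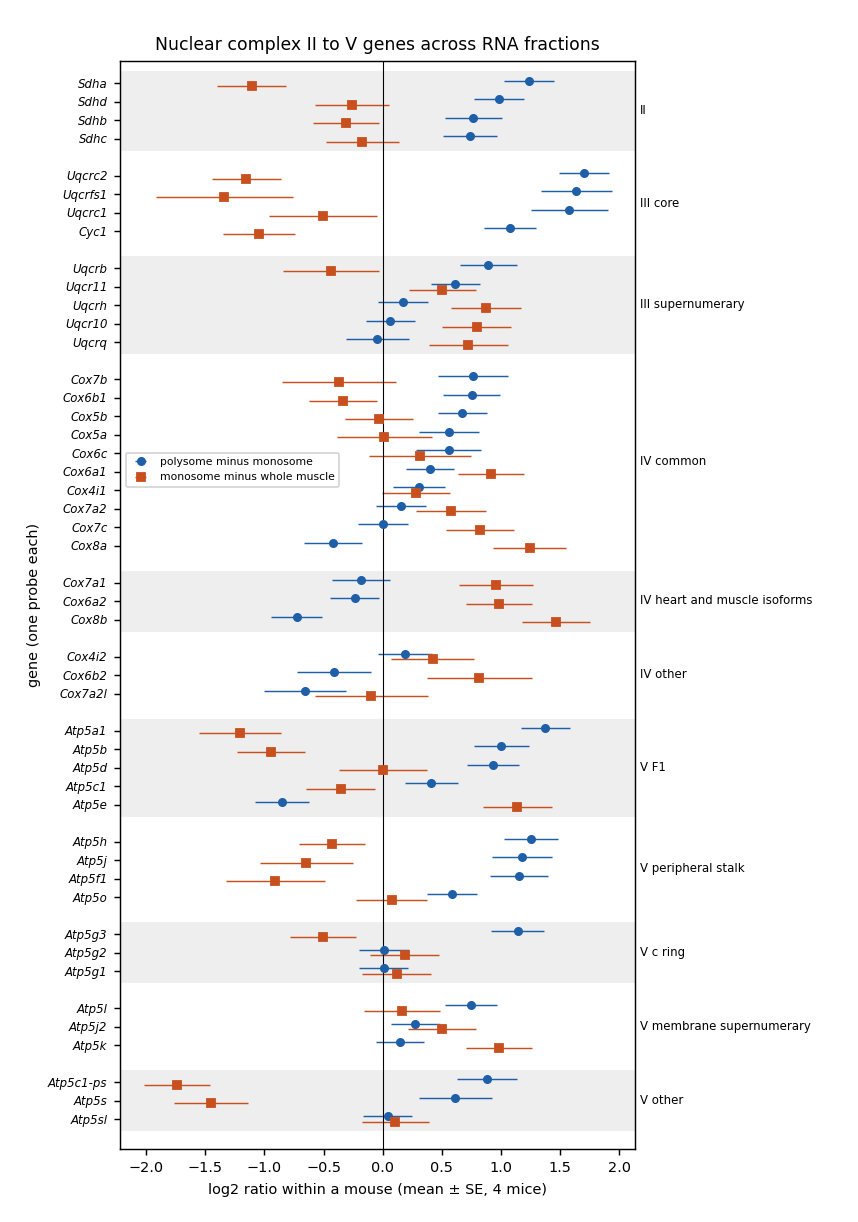
Polysome minus monosome and monosome minus whole-muscle ratio of each gene, log2 within a mouse, mean with limma standard error over 4 mice; the ratios share the monosome arrays with opposite sign. Complex III core genes lie at 1.08 to 1.70 for polysome minus monosome, and the heart and muscle isoforms of complex IV at -0.73 to -0.18.

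Split by genotype, the polysome minus monosome ratio was lower in Het for every supernumerary gene tested in complexes III and V and every common or muscle subunit of complex IV. This comparison was chosen after values had been seen, and sets Het mice 1 and 3 against WT mice 1 and 2. Of the 47 genes, 31 had a lower ratio in Het, with a median difference of -0.54, beside -0.08 over all probes. At an unadjusted p under 0.05, 14 were lower, where 3.17% of all probes were, and none was higher, where 4.54% were. None passed the adjusted p (0% of all probes), the lowest of the 47 being 0.506 by limma. The group medians were -1.21 over 5 complex III supernumerary genes, -1.24 over 10 complex IV common genes, -1.71 over 3 heart and muscle isoforms and -1.18 over 3 complex V membrane supernumerary genes. Without WT mouse 2 these were -1.1, -1.03, -1.52 and -0.96, the median of the 47 was -0.49 and 15 were lower. Without Het mouse 1 or without Het mouse 3, which leaves 1 Het mouse, none was.

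Cox7a1 had ratios of 0.52 and 1.35 in WT and -1.31 and -1.31 in Het (-2.24, SE 0.49, limma adjusted p = 0.506). Cox6c, a small membrane subunit of complex IV, had 1.03 and 2.17 in WT and -0.55 and -0.42 in Het (-2.09). Uqcrq, a small subunit of complex III, had 0.29 and 1.29 in WT and -1.04 and -0.73 in Het (-1.67). In all 3 both WT mice were above 0 and both Het mice below it. Cox8b had -0.06 and 0.30 in WT and -1.50 and -1.67 in Het (-1.71), and Atp5e had -0.14 and 0.43 in WT and -1.73 and -1.98 in Het (-2). For these, too, both Het mice lay below both WT mice.

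Some other genes differed in the other direction or overlapped. Sdha had ratios of 0.90 and 0.75 in WT and 1.49 and 1.80 in Het (0.82, limma adjusted p = 0.506). Uqcrc1 had 1.80 and 0.22 in WT and 2.23 and 2.08 in Het, and Uqcrfs1 had 1.03 and 2.36 in WT and 1.51 and 1.66 in Het. Sdha was higher in both Het mice, as was Uqcrc1, while Uqcrfs1 overlapped. The group medians of the differences were 0.51 in complex II, 0.59 in the complex III core and 0.46 in complex V F1, to which Atp5e (-2) also belongs. For Cox7a1 the monosome signal was 15.05 and 14.14 in WT and 16.18 and 15.73 in Het, and for Atp5e it was 15.61 and 15.10 in WT and 16.64 and 16.25 in Het. Het was thus above WT on every monosome array of these genes.

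**Figure D5:**
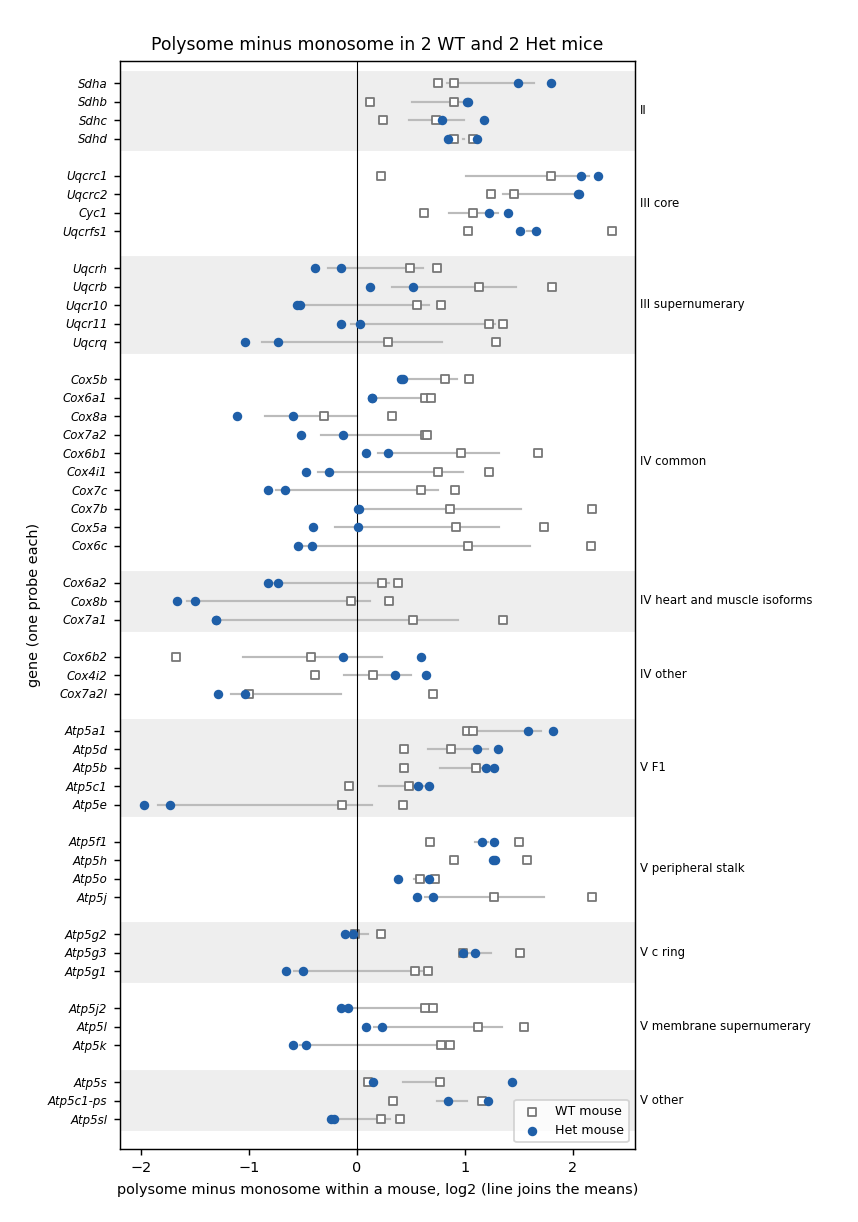
Polysome minus monosome ratio of each gene (log2, x axis) in 2 WT mice (open squares) and 2 Het mice (filled circles), with a line between the genotype means. For the supernumerary genes of complex III and the common and muscle genes of complex IV the Het means lie to the left of the WT means, with the largest gap for Cox7a1 (-2.24), whereas Sdha, Uqcrc1, Cox4i2 (0.62) and Cox6b2 (1.29) lie further right in Het. The gaps of Cox4i2 and Cox6b2 rest partly on WT mouse 2, at -0.39 and -1.68, against 0.15 and -0.43 in WT mouse 1.

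Other genes of the pathway were listed for comparison. Of 37 nuclear complex I genes, 4 were higher and 5 lower on Het polysomes at an unadjusted p under 0.05, beside 10.3% and 4.83% of all probes, with a median of 0.10. By the adjusted p 22 rose and 1 fell on polysomes against whole muscle, beside 13.5% and 11.8% of all probes. All 6 subunits of complexes III to V made from mitochondrial DNA, whose RNA is translated inside mitochondria, fell on polysomes against whole muscle by the adjusted p (median -3.24). Their polysome signal was higher in Het for all 6 (median 1.73, 5 at an unadjusted p under 0.05), while their whole-muscle differences had a median of -0.12. Cycs, cytochrome c, differed by 0.63 on polysomes. Of 24 tested assembly factors of complexes II to V, 8 were higher and none lower on Het polysomes at an unadjusted p under 0.05 (median 0.46), beside the same 10.3% and 4.83% of all probes.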

How the data were processed

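Gene expression was measured in gastrocnemius on 16 Agilent 1-colour arrays, 1 per RNA sample. Per the file headers the authors extracted the spots with Agilent Feature Extraction 11.0.1.1, which subtracts background, and the deposited processed signal is an intensity on a linear scale. The authors also deposited a table of log2 normalised values, used as an alternative. Probe positions in the files are mm9.

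Control spots and outlier spots were left out of 62976 spots per array, log2 intensities were quantile-normalised over 12 arrays (16 where monosomes entered), and spots of a probe were averaged. Tests covered probes that at least 1 group had well above background on all of its arrays (19855 probes, or 20307 with monosomes). Groups were compared with limma 3.58.1 in R 4.3.3, and p-values were adjusted by Benjamini and Hochberg's method over the whole set. Loading and the fraction ratios were taken within a mouse, except for each slide alone and with no replicate block. There group means were compared. The whole-muscle and polysome arrays of a number always lay on different slides, so a slide alone held no such pair. Per the design text, all 3 kinds of RNA were isolated from every mouse. That a shared genotype and number mark 1 mouse was assumed, since no label states it, and deviations of whole-muscle and polysome arrays of 1 number correlated at 0.06 to 0.48. An exact permutation test of 3 against 3 cannot go below 0.1. The number of arrays limits the precision.

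Values per array are given for all complex II genes, for the tissue-isoform families that passed the filter, and in complexes III, IV and V for the 2 genes with the highest and the 2 with the lowest limma statistic for loading. Between RNA kinds the 3 highest and 3 lowest ratios are named. Further genes, such as Cyc1, Cox7c, Cox6c and Uqcrq, were chosen after their values were seen. The members and lists were chosen with earlier results of these data known. The alternatives were 75th percentile scaling, normexp correction (offset 50), the authors' table, other filters, the mean of a gene's probes, slide and brightness as terms, each slide alone, the replicate block, the methods' t-test and leaving out each mouse. Promoter sequences came from RefSeq (GRCm38.p6). Scripts were tested on simulated data.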

Additional observations from a re-analysis of the deposited data

Results flagged for a closer look

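The loading of Atp5e differed in sign between genotypes in every mouse (Het minus WT -1.03, limma adjusted p = 0.241), as did that of 1403 of 19855 probes (7.07%). With array brightness as a term the difference was -0.06.

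For 13 genes the polysome minus monosome ratio was above 0 in both WT mice and below 0 in both Het mice, as it or its reverse was for 9.27% of all probes. None passed limma's adjusted p. In complex III the Het minus WT differences were -0.88 for Uqcrh, -1.67 for Uqcrq and -1.21 for Uqcr10. In complex IV they were -1.35 for Cox4i1, -2.09 for Cox6c, -0.96 for Cox7a2, -1.50 for Cox7c, -1.08 for Cox6a2 and -2.24 for Cox7a1. In complex V they were -1.19 for Atp5g1, -0.78 for Atp5j2 and -1.35 for Atp5k, and for Atp5sl the difference was -0.54.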

How the results depend on the processing

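Shares of all probes called were taken for the main settings only. Counts of genes under an alternative thus have no share beside them and show only how the count moved. Between alternatives the whole-muscle median of 0.13 was 0.29 with 75th percentile scaling, 0.011 within slide 1 and 0.10 to 0.17 with a mouse left out. By the methods' t-test 4 genes were higher and 2 lower instead of none (0 to 0 with a mouse left out). The polysome median of -0.002 was 0.11 with 75th percentile scaling, 0.12 with brightness as a term and -0.06 to 0.088 with a mouse left out. The 12 genes higher became 1 within slide 1, 1 within slide 2, 5 with brightness, 7 by the methods' t-test, and 3 to 11 with a mouse left out (3 without Het mouse 1). The 4 lower became 2 with 75th percentile scaling, 11 with normexp, 7 in the authors' table, 7 with the filter on all arrays, 9 with no filter, 0 within each slide and 2 to 9 with a mouse left out.

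The loading median of -0.05 was -0.26 with 75th percentile scaling, 0.12 within slide 1, -0.25 within slide 2, 0.10 with brightness and -0.16 to -0.03 with a mouse left out. The 2 genes higher became 0 with 75th percentile scaling, the slide term, each slide alone or brightness, 4 with normexp, 7 in the authors' table and 0 to 2 with a mouse left out. The 3 lower became 8 with normexp, 5 in the authors' table, 5 with the filter on all arrays, 6 with no filter, 0 within each slide or with brightness, 5 with no replicate block, 7 by the methods' t-test and 0 to 4 with a mouse left out.

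Polysome against whole muscle, the median of 0.54 was 0.24 with 75th percentile scaling and 0.52 to 0.60 with a mouse left out. The 23 genes that rose became 8 with that scaling, 0 within each slide, 14 with brightness and 9 to 26 with a mouse left out. The 3 that fell became 1 with no filter, 0 within each slide or with brightness, 1 by the methods' t-test and 1 to 2 with a mouse left out. The WT median of 0.63 was 0.41 with 75th percentile scaling (0.59 to 0.73 with a mouse left out), and the Het median of 0.50 was 0.17 with it, 0.67 within slide 1, 0.34 within slide 2 and 0.68 with brightness (0.44 to 0.52).

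The monosome difference of 0.70 was 0.80 with 75th percentile scaling, 0.57 with normexp, 0.57 with the mean of a gene's probes and 0.52 within slide 2 (0.75 within slide 1), and 0.46 to 0.79 with a mouse left out, when 6 to 25 genes were higher and 0 to 4 lower. Polysome minus monosome (0.59) had a median of 0.43 to 0.66, 6 to 26 genes higher and 0 to 4 lower with a mouse left out, and 1 lower with 75th percentile scaling. Monosome minus whole muscle (0.01) was -0.33 with that scaling, with 2 higher and 11 lower. It had 11 lower in the authors' table and 12 with no replicate block, and with a mouse left out a median of 0.014 to 0.134, 0 to 13 higher and 1 to 13 lower. The genotype difference of polysome minus monosome (-0.54) was -0.90 with 75th percentile scaling and -0.82 with the filter on all arrays. In it normexp gave 3 higher and 22 lower, the authors' values gave 3 and 22, and no filter 2 higher, and with a mouse left out the median was -0.63 to -0.49, with 0 to 3 higher and 0 to 20 lower.

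With the replicate block the whole-muscle median was 0.135 with none called, and on polysomes it was -0.002 with 10 higher and 4 lower. WT and Het mice of the same number are different animals, whose deviations correlated at -0.33 to 0.46. Sdhc on polysomes was -0.024 without WT mouse 1 (up to 0.577 without WT mouse 2). The loading difference of Sdhb, -0.03, was 0.063 with normexp, 0.28 in the authors' table, 0.38 with the mean of its probes, 0.36 within slide 1 and 0.10 without WT mouse 1, and that of Cox7a2 was 0.072 with brightness as a term. Over all 47 genes brightness changed the sign of 17 loading differences, slide 1 alone that of 10 and slide 2 alone that of 8. Of 18 genes with over 1 tested probe, the probes shared 1 sign for 16 on polysomes and for 13 in loading. The loading difference of Atp5g1, -0.30, was -0.86 by a second probe. The cause was not tested in any of these. Of 1023 values of the single genes followed, over 59 results, 779 kept direction and side of the threshold, 191 were no longer past it, 46 came past it and 7 turned. With 3 or 2 mice per genotype, leaving 1 out can leave a lone monosome array, which is assumed to vary like the other groups. A slide alone leaves a lone array of at least 1 genotype in every kind of RNA. Counts called within a slide therefore cannot be set against the main ones. Probes near background, such as Atp5s, give bounds at most.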
